A study of Aspergillus nidulans FGSC A4 with 21 samples.

Results

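Benzo[a]pyrene (BaP) was compared with its solvent dimethyl sulfoxide (DMSO) after 24 h of exposure in the filamentous fungus *Aspergillus nidulans*, over the 1503 genes that the deposited 24 h table lists, of 2403 genes listed at any of the time points of 6, 24 and 48 h. Members were taken by the table alone: every gene it lists, with the 3 columns of BaP libraries (B22, B23 and B24) set against the 3 columns of DMSO libraries (D25, D26 and D27). These 6 libraries belong to a series of 21 samples, and its 3 untreated samples of 0 h were set aside here. Both groups were hyphae of strain FGSC A4, grown for 18 h with 1% glucose, moved to minimal medium with 0.1% glucose and shaken at 37°C for 24 h with either 200 µM BaP dissolved in DMSO or the same volume of DMSO alone. RNA was selected for polyadenylated transcripts and sequenced as strand-specific libraries. The listed genes had already been kept by the study as changed on these same 6 libraries, so that a high share of changed genes is built into the list and is no result. The tissue is a submerged mycelium, and RNA pooled over a culture cannot tell fewer cells of a kind from less RNA per cell.

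BaP is a polycyclic aromatic hydrocarbon of several fused rings, formed when organic matter burns incompletely, and fungi can oxidize it with cytochrome P450 monooxygenases. A mycelium on little glucose runs through its preferred sugar within hours and then turns to other carbon sources, recycles its own polymers and proteins, and starts differentiation and secondary metabolism. The activators, hydrolases and catabolic enzymes of that switch stand on one side of fungal carbon metabolism, and glycolysis, respiration and the making of ribosomes on the other. The questions asked of the 24 h libraries were which of these functions were higher or lower with BaP and how each single library stood.

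The values are read as RPKM, reads per kilobase of transcript and per mega reads of the library. A log2 change is the mean of BaP minus the mean of DMSO on log2(RPKM + 1), which understates the change of genes with low values, and is given with its standard error (SE) from limma over 3 libraries against 3. Values of single libraries are always given in the order B22, B23 and B24 for BaP and D25, D26 and D27 for DMSO. A gene was called, and is said to have risen or fallen, when its log2 change was over 1 or under -1 with a Benjamini-Hochberg adjusted p under 0.05 over all 1503 genes. By this rule limma called 41.5% of the listed genes higher and 32.6% lower with BaP, 74.1% in all, and the 3 BaP libraries did not overlap with the 3 DMSO libraries in 93.7% of the genes. Since the list was chosen on the same libraries, these shares are the background against which every count below stands, and nothing is read from their size. The labels call the cultures triplicates, so p-values measure the spread between these 6 libraries only. An exact permutation test of 3 libraries against 3 cannot give a two-sided p below 0.1.

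Depth was alike in the 6 libraries and the libraries themselves were not equally far apart. Library sizes recovered from the steps in the RPKM values were between 8.17 and 12.1 M reads (M, mega). The study reports more reads per sample than this. The difference was not resolved, so these sizes and the read counts below are inferred. The reads behind the higher group mean had a median of 425 over the genes, so that for most genes counting error was small beside the differences between cultures. Only 40 of the genes had fewer than 10 reads in their higher group. The DMSO library D26 lay between the groups, and so, less far, did the BaP library B23. To measure this, a library was given a place for each gene, 0 at the mean of the other 2 libraries of its own group and 1 at the mean of the other group, over genes in which that gap exceeded 1 on the log2 scale. The median place was 0.40 for D26 over 1259 genes and 0.33 for B23 over 1256 genes, against -0.32 to -0.02 for the other 4 libraries. B22 and D27 formed the ends of the range, with B22 the highest of the 6 libraries in 601 of 748 genes that were higher with BaP and D27 the lowest in 587 of them.

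The displacement of D26 was unequal between genes that were higher and genes that were lower with BaP. Among the higher genes the median place of D26 was 0.58, and it lay nearer to BaP than to the other DMSO libraries in 403 of 668 genes (60.3%). Among the lower genes its median place was 0.31, and it lay nearer to BaP in 84 of 591 genes (14.2%). B23 was displaced more evenly, with median places of 0.26 over the higher genes, of which 136 of 675 lay nearer to DMSO, and 0.39 over the lower genes, of which 154 of 581 did. Across the 1503 genes the log2 values of B23 and D26 had a Pearson correlation of 0.967, higher than that of D26 with D25 (0.959) or D27 (0.853). B23 itself correlated at 0.972 with B24 and at 0.956 with B22. These values are a description over genes that share libraries and were selected. Whether the position of D26 and B23 comes from the cultures or from handling was not tested.

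**Figure D1:**
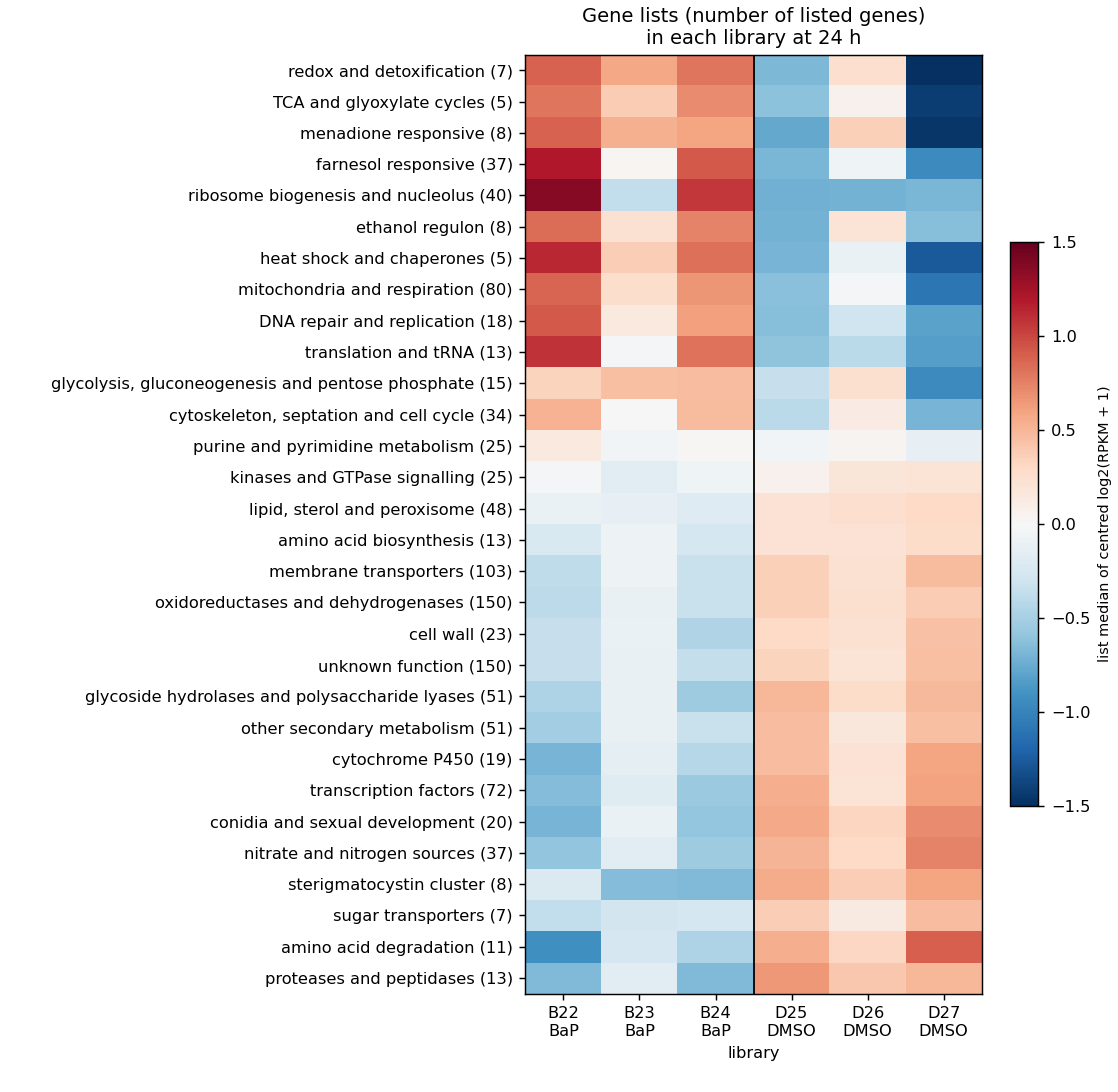
Colours show, for each of 30 gene lists, the median over its genes of log2(RPKM + 1) minus the gene's mean of the 6 libraries, with the number of listed genes in parentheses and 1 column per library. Red is above and blue below the gene's mean; D27 stands out as the lowest library for the redox, menadione, glycolysis and tricarboxylic acid cycle lists, and B23 lies nearer to the DMSO than to the other BaP libraries in the ribosome list, at a median of -0.37 against 1.36 in B22 and 1.06 in B24.

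**Figure D2:**
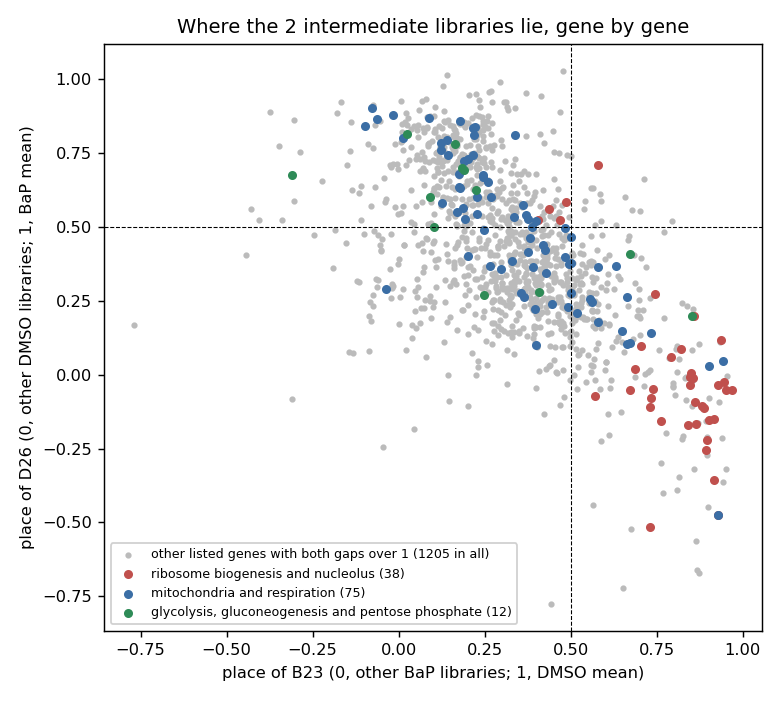
Each point is a gene, at the place of B23 (x axis, 0 at the other BaP libraries and 1 at the DMSO mean) and the place of D26 (y axis, 0 at the other DMSO libraries and 1 at the BaP mean), for genes in which both gaps exceeded 1 on the log2 scale. Genes for ribosome biogenesis (red) lie at the lower right, with B23 near DMSO and D26 with its own group, and genes for glycolysis (green) lie mostly at the upper left, with B23 at BaP and D26 shifted towards BaP; dashed lines mark a place of 0.5.

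How the calls changed when 1 library was left out was alike for nearly every group of genes described here. All 1503 genes kept their sign when any 1 library was left out. Without B22, B24 or D25, however, limma called 1 gene in each fit, although 1019, 1021 and 1074 genes had an unadjusted p under 0.05. Without B23, D26 or D27 it called 1091, 1238 and 744 genes. The gene called in all 6 such fits was AN10431. Of the 160 named genes that were called, 118 kept the call in each of the fits without B23, D26 or D27, 17 lost it without B23, 12 without D27 and 4 without D26, and 9 had it only in the fit without D26. Among the genes described here, those that lost it without B23 were AN0400, AN6633, AN12206, AN10782, AN5323, AN2477, AN8058, AN3377, *phk*, *ack*, *gfdB* and *mtfA*, and those that had it only without D26 were AN1278, AN8636, AN8642, AN3883, *cetL*, *hogA*, *nopA*, *hxkA*, *tpiB*, *otaA* and *pbsA*. AN0097, AN10700, AN1104, AN5566, *agaA*, *farB*, *hpdA*, *laeA*, *swoM*, *tpiA* and *palA* lost it without D27, and AN6374 and AN6558 without D26. These counts without 1 library over single lists were an alternative chosen after seeing the data. P-values were adjusted over the whole list, so many genes could pass or miss the limit together. The counts therefore do not show which library carried the calls of a list. Genes were named by a rule, given with the processing. AN0490, AN5566, AN6558, AN10970, AN12478, *amyR*, *aoxB*, *clrB*, *farB*, *gfdA*, *hxkA*, *ipnA*, *mccA*, *noxA*, *otaA*, *pacC*, *palA*, *palF*, *pbsA*, *prnB*, *prnC*, *prnD*, *rhaR*, *tpiB*, *xlnA* and *xlnR* fall outside it and were chosen after their values were seen.

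Levels are given next for all genes higher and all genes lower with BaP, called or not. The genes higher with BaP had a median of 38.0 RPKM over the 6 libraries (quartiles 12.2 and 89.8), and 168 of 748 reached 100 RPKM or more. The genes lower with BaP had a median of 10.1 RPKM (quartiles 3.17 and 28.2), and 42 of 755 reached 100 RPKM or more. A log2 change beyond 2 was seen in 71 of the higher and 11 of the lower genes. Of the 265 lower genes that were not called, 183 were under 5 RPKM, where the added 1 in log2(RPKM + 1) shrinks the change. At the top of the scale stood AN1278, of no described function, at 8799.7, 6538 and 6040.0 RPKM with BaP and 3468, 6098 and 1838 RPKM with DMSO. Its log2 change was 1.05 ± 0.44 and the groups overlapped, since D26 lay above B24. *nopA* (AN3361), which encodes an opsin-like protein of the microbial rhodopsin family, was at 4796, 3114 and 3407 RPKM with BaP and 1214, 2893 and 506 RPKM with DMSO, and rose by 1.61 ± 0.59 on the log2 scale with D26 close below B23.

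Among the 10 largest rises with the groups apart, D27 was the lowest library in 10 and D26 the highest DMSO library in 9. The largest was that of AN9310 on chromosome VIII (243746 to 244298), annotated as a light-induced transcript, at 754, 714 and 626 RPKM with BaP and 87.8, 304 and 16.1 RPKM with DMSO, a log2 change of 3.17 ± 0.91 (limma, adjusted p = 0.0175). AN0400, of no described function, was at 272, 116 and 138 RPKM against 19.5, 102 and 2.94 RPKM (3.02 ± 1.05), with D26 close below B23, and lost its call without B23. AN2398, a predicted O-methyltransferase on chromosome VII (3799296 to 3801159), was at 29.1, 34.3 and 32.1 RPKM with BaP and at 2.56, 7.18 and 1.18 RPKM with DMSO, a log2 change of 3.04 ± 0.46 (limma, adjusted p = 0.0155). The lowest BaP library lay 4.05-fold above the highest DMSO library, D26. AN6633 on chromosome I (2683624 to 2684651), annotated only as induced by nitrate, was among the most abundant transcripts, at 6722, 4019.7 and 3905 RPKM with BaP. Its DMSO libraries held 625, 2723 and 133 RPKM, so that D26 stood 20.4-fold above D27 while staying below every BaP library. AN11477 on chromosome V, of no described function, was at 1306, 785 and 697 RPKM against 233, 156 and 44.6 RPKM, and here D25 and not D26 was the highest DMSO library.

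A pair of adjacent genes of acetate and sugar phosphate metabolism rose. *phk* (AN4913), a phosphoketolase that splits pentose or hexose phosphates to acetyl phosphate, was at 354, 252 and 299 RPKM with BaP and 47.6, 192 and 8.29 RPKM with DMSO. The neighbouring gene *ack* (AN4914), the acetate kinase that turns acetyl phosphate into acetate, was at 207, 169 and 188 RPKM against 40.8, 133 and 18.4 RPKM. Both rose, by 2.76 ± 0.95 and 1.98 ± 0.63, and in both D26 lay well above D25 and D27 and below all BaP libraries. Without B22, B24 or D25 neither was called, and the same holds for every gene named from here on except AN10431. AN3558, with a predicted carbon-sulfur lyase domain, was at 610.2, 287 and 408 RPKM against 49.4, 232 and 19.8 RPKM. AN11783, of unknown function, was at 752, 538 and 678 RPKM against 89.1, 336 and 28.6 RPKM, and both rose with D26 as the highest DMSO library.

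The largest fall was that of AN10431, and both of its neighbours fell as well. AN10431 on chromosome II (3580962 to 3582127), of unknown function and annotated as nitrate-induced with a predicted binding site for NirA, the activator of nitrate assimilation genes, was at 7.87, 10.8 and 11.7 RPKM with BaP and 234, 133 and 154 RPKM with DMSO. Its log2 change was -3.95 ± 0.30 (limma, adjusted p = 0.00278), the lowest adjusted p of the list, and B23 and D26 lay close to the other libraries of their groups. The next gene, AN10464, carries the same annotation and was at 1.78, 3.75 and 2.94 RPKM against 24.04, 13.8 and 19.7 RPKM, with a log2 change of -2.40 ± 0.31. The gene on the other side, *tprA* (AN10448), a protein with tetratricopeptide repeats, was at 3.51, 2.93 and 2.41 RPKM against 9.44, 7.88 and 12.5 RPKM and fell by 1.46 on the log2 scale. The groups were apart in all 3 neighbours.

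After AN10431, the falls with the greatest log2 change belonged to AN11034 and to *fahA*, a gene of tyrosine breakdown given with that pathway. AN11034 on chromosome II, with a domain of unspecified catalytic activity, was at 0.763, 2.89 and 1.04 RPKM with BaP and 16.3, 8.36 and 25.2 RPKM with DMSO (-2.75 ± 0.46), and the groups were apart. AN6858, a predicted transcription factor on chromosome I, was at 2.66, 3.09 and 2.48 RPKM with BaP and 17.8, 8.47 and 32.3 RPKM with DMSO (-2.28 ± 0.44). CYP5078A3 (AN7359), a cytochrome P450, was at 4.08, 9.61 and 4.91 RPKM against 30.8, 21.1 and 44.4 RPKM (-2.21 ± 0.39). AN3780, a putative alpha-L-rhamnosidase that would release rhamnose from plant polymers, was at 0.712, 3.13 and 1.71 RPKM against 11.5, 6.98 and 12.6 RPKM (-2.05 ± 0.38). In each the BaP libraries lay below all DMSO libraries, and D26 was the DMSO library nearest to BaP. AN5440, a putative cytochrome c peroxidase, and its neighbour AN5439, of unknown function, fell by 2.08 and 2.00, with AN5440 at 13.9, 27.6 and 17.9 RPKM against 94.5, 54.3 and 113 RPKM.

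**Figure D3:**
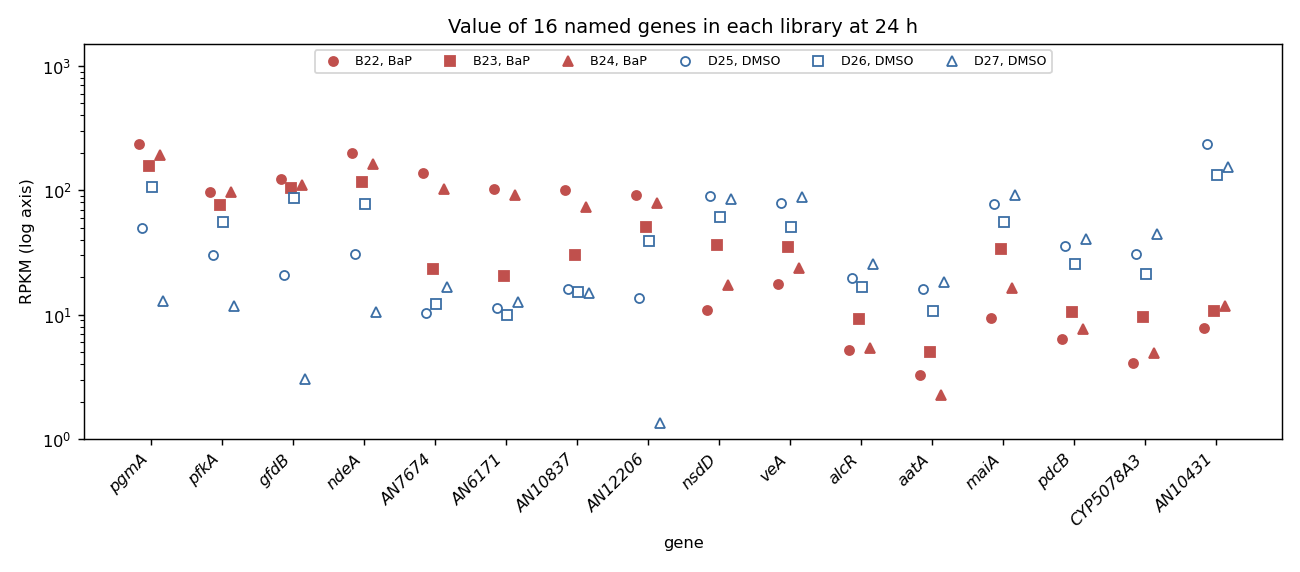
RPKM on a log axis of 16 named genes in each of the 6 libraries, with filled red marks for BaP, open blue marks for DMSO, and 1 shape per library within a group. For *pgmA*, *pfkA*, *gfdB*, *ndeA* and AN12206 the open square of D26 lies close below the BaP marks, for AN7674, AN6171 and AN10837 the filled square of B23 lies near the DMSO marks, and AN10431 shows the widest gap between groups.

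Genes annotated to glycolysis and the paths beside it were called in both directions. Of 15 listed genes whose annotation names glycolysis, gluconeogenesis, pyruvate or the pentose phosphate pathway, limma called 8 higher and 4 lower. These are 53.3% and 26.7%, beside 41.5% and 32.6% of all listed genes. The members called higher were enzymes of the glycolytic path or beside it. *pfkA* (AN3223), the phosphofructokinase that commits sugar phosphate to glycolysis, was at 96.6, 76.2 and 97.3 RPKM with BaP and 30.4, 55.9 and 11.7 RPKM with DMSO, a log2 change of 1.68 ± 0.51. *pgmA* (AN3059), a phosphoglycerate mutase, was at 235, 158 and 194 RPKM against 49.4, 106 and 12.9 RPKM (2.20 ± 0.67). In both, D26 was nearer to the BaP libraries than to D27, and D27 was the lowest library.

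*tpiA* (AN6900) and *tpiB* (AN5908), annotated as triose-phosphate isomerases, rose by 1.05 ± 0.28 and 1.50 ± 0.54. *tpiB* was at 412, 669 and 605 RPKM against 257, 356 and 79.5 RPKM, and B23 was its highest library, the opposite of the usual order. *hxkA* (AN7459), a hexokinase, was at 319, 296 and 290.0 RPKM against 108, 226 and 38.9 RPKM and *swoM* (AN6037), the glucose-6-phosphate isomerase, at 236, 219.7 and 234 RPKM against 117, 159 and 71.2 RPKM. The members called lower were of other reactions: *pdcB* (AN8396), a pyruvate decarboxylase, was at 6.33, 10.5 and 7.70 RPKM against 35.8, 25.4 and 40.99 RPKM (-1.93 ± 0.29), and AN10700, an aldolase of protocatechuate breakdown by orthology, was at 15.6, 28.1 and 23.5 RPKM against 47.02, 41.3 and 59.3 RPKM. *hpdA* (AN1899), which the word search took in through its hydroxyphenylpyruvate substrate, belongs to tyrosine breakdown and is described with that pathway. Over these 15 genes limma made 0 calls without B22, B24 or D25 (unadjusted p under 0.05 in 8, 8 and 10 genes) and 10, 12 and 5 calls without B23, D26 and D27.

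Genes annotated to mitochondria or respiration were mostly higher with BaP. Of 80 listed genes, 67 were higher and 13 lower with BaP, with a median log2 change of 1.19 beside -0.19 over all listed genes. Limma called 62 higher and 7 lower (77.5% and 8.8%, beside 41.5% and 32.6% of all listed genes). Their summed level was 10203, 6886 and 8556 RPKM with BaP and 3419, 5421 and 2371 RPKM with DMSO. The sum was highest in B22 and lowest in D27, D26 was the highest DMSO library, and the groups did not overlap. *ndeA* (AN7500), an alternative NADH dehydrogenase that passes electrons to ubiquinone, was at 200.1, 116 and 162 RPKM with BaP and 30.8, 78.2 and 10.5 RPKM with DMSO (2.35 ± 0.65). AN1066, whose orthologs help assemble cytochrome c oxidase, was at 334, 184 and 276 RPKM against 50.3, 110.1 and 18.3 RPKM (2.43 ± 0.60). AN10782, the mitochondrial carrier that imports phosphate for ATP synthesis, was at 327, 242 and 288 RPKM against 61.5, 165 and 7.57 RPKM (2.67 ± 0.95).

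The mitochondrial genes called lower included the peroxidase AN5440, given above. AN9010, with orthologs that carry nicotinamide mononucleotide, was at 5.15, 19.6 and 10.04 RPKM against 35.2, 24.5 and 45.9 RPKM (-1.65 ± 0.46), and AN8780, a mitochondrial serine endopeptidase by orthology, was at 7.11, 13.4 and 8.21 RPKM against 25.6, 27.7 and 38.2 RPKM (-1.60 ± 0.31). B23 was the BaP library nearest to DMSO in both. Across the 80 mitochondrial genes limma made 0 calls without B22, B24 or D25 (unadjusted p under 0.05 in 55, 59 and 59 genes) and 63, 74 and 40 calls without B23, D26 and D27. Only 5 genes carried an annotation of the tricarboxylic acid or glyoxylate cycle, of which limma called 3 higher and 1 lower (60% and 20%, beside 41.5% and 32.6% of all listed genes). Among them *maeB* (AN6933), the enzyme that oxidizes malate to pyruvate, was at 177, 123 and 133 RPKM with BaP and 38.5, 97.4 and 15.7 RPKM with DMSO (1.84 ± 0.59), and *mcdA* (AN1619), the 2-methylcitrate dehydratase of propionate breakdown, was at 3.39, 5.46 and 4.57 RPKM against 11.9, 9.74 and 11.9 RPKM (-1.17 ± 0.25). Over these 5 genes limma made 0 calls without B22, B24 or D25 (unadjusted p under 0.05 in 3, 4 and 4 genes) and 4, 4 and 4 calls without B23, D26 and D27. Values of *citA* and *acuE*, which the study places in the tricarboxylic acid cycle or its replenishment, are not given here. Both were called in each of the fits without B23, D26 and D27.

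Genes for making ribosomes were higher in every listed case, and 1 BaP library, B23, lay close above the DMSO libraries in their sum. All 40 genes annotated to ribosome biogenesis, ribosomal RNA processing or the nucleolus were higher with BaP. Limma called 39 of them (97.5%, beside 41.5% of all listed genes), and their log2 changes ran from 0.95 to 2.35 with a median of 1.38. Their summed level was 2277, 695 and 1840.0 RPKM with BaP and 471, 559 and 460.4 RPKM with DMSO. B22 and B24 were thus 4.58-fold and 3.70-fold above the DMSO mean, and B23 was 1.40-fold above it. B23 was nearer to DMSO than to the other BaP libraries in 36 of the 40 genes, and D26 was nearer to BaP in only 5 of 38, so that the library that usually lay between the groups stayed with DMSO here. In 8 genes B23 overlapped with the DMSO libraries, where the groups overlapped in 94 of all 1503 listed genes.

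AN7674, which by orthology acts in the nucleolus on precursors of the large ribosomal subunit, on chromosome IV (2338344 to 2339321), had the largest rise in the group. It was at 139, 23.3 and 102 RPKM with BaP and 10.2, 12.1 and 16.8 RPKM with DMSO, a log2 change of 2.35 ± 0.62 (limma, adjusted p = 0.0159). AN6171, of a complex that binds small nucleolar RNA in the small-subunit processome, was at 102, 20.5 and 91.01 RPKM against 11.4, 10.02 and 12.6 RPKM (2.26 ± 0.58). AN7526, also of the small-subunit processome, was at 53.1, 5.75 and 38.1 RPKM against 4.64, 3.39 and 5.35 RPKM (2.17 ± 0.72). In the last, B23 stood next to D27, and B24 was 6.63-fold above B23. Over the ribosome genes limma made 0 calls without B22, B24 or D25 (unadjusted p under 0.05 in 14, 13 and 25 genes) and 40, 33 and 34 calls without B23, D26 and D27.

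**Figure D4:**
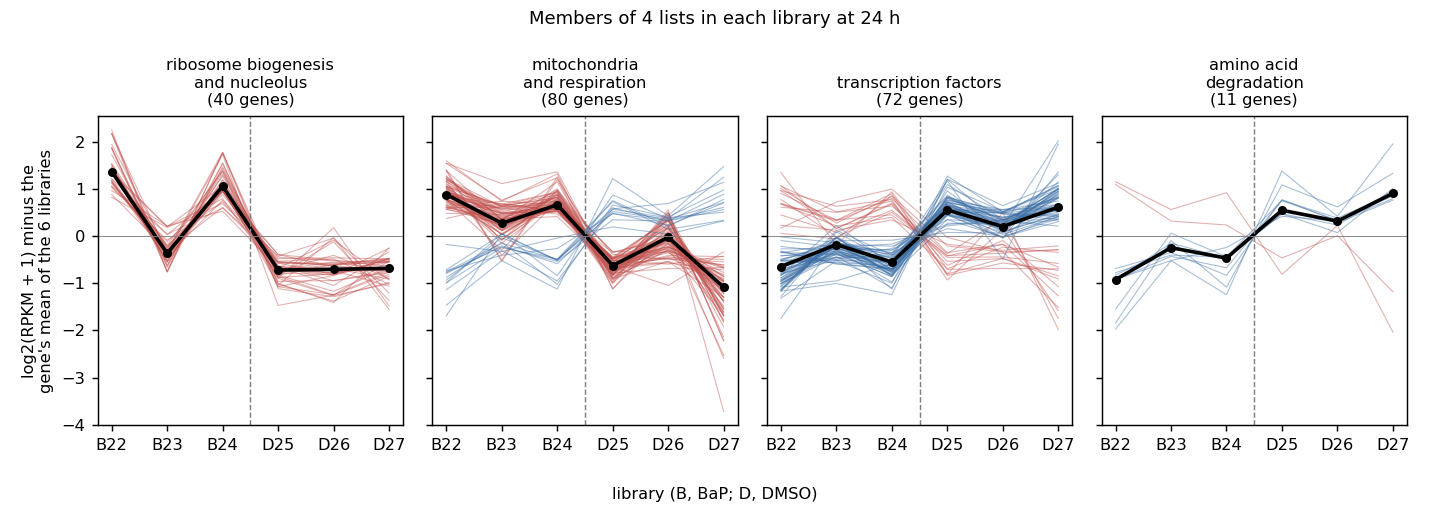
Thin lines are single genes of 4 lists across the 6 libraries, as log2(RPKM + 1) minus the gene's mean, red where the gene was higher and blue where it was lower with BaP, and the black line is the list median. The ribosome genes drop in B23 to near the DMSO libraries, the mitochondrial genes step down from B22 to D27 with D26 in between, and the transcription factors and the amino acid degradation genes run mostly the other way.

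Genes that feed ribosome making showed the same low B23. AN2415 and AN6558, subunits shared by RNA polymerases I and III by orthology, which transcribe ribosomal and transfer RNA, were at 56.1, 13.3 and 47.1 and at 90.2, 29.3 and 71.7 RPKM with BaP. With DMSO the former held 9.01, 9.44 and 12.1 and the latter 25.5, 25.1 and 27.96 RPKM. AN10970, a subunit of RNA polymerase I, was at 74.3, 25.1 and 55.9 RPKM against 17.2, 17.4 and 17.3 RPKM, with the 3 DMSO libraries nearly identical. The genes rose by 1.62, 1.11 and 1.39 on the log2 scale. Of 13 genes annotated to translation or transfer RNA, all were higher and limma called 10 (76.9%, beside 41.5% of all listed genes). B23 lay nearer to DMSO in 7. Over these 13 limma made 0 calls without B22, B24 or D25 (unadjusted p under 0.05 in 5, 6 and 6 genes) and 11, 9 and 8 calls without B23, D26 and D27. A pair of alanine tRNA genes with the AGC anticodon, tA(AGC)5 and tA(AGC)6, rose by 1.84 ± 0.45 and 1.98 ± 0.44. Near-identical copies of tRNA genes share reads, and the libraries were selected for polyadenylated RNA, so their values are uncertain.

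Some single genes of purine and pyrimidine synthesis rose with the same low B23. AN10837, an amidophosphoribosyltransferase by orthology, the enzyme of the committed step to inosine monophosphate (IMP), was at 99.7, 30.1 and 73.4 RPKM with BaP and 16.1, 15.2 and 15.1 RPKM with DMSO (1.90 ± 0.43). AN12478, annotated as an IMP dehydrogenase or GMP reductase, was at 106, 27.5 and 88.9 RPKM against 20.2, 20.4 and 20.1 RPKM, and AN5566, a GMP synthase, at 12.5, 7.11 and 13.5 RPKM against 5.51, 4.30 and 3.25 RPKM. AN0490, a CTP synthase, was at 50.5, 18.4 and 39.6 RPKM against 15.7, 14.4 and 13.8 RPKM. In all 4 genes B23 lay nearer to DMSO than to B22 and B24, without reaching into the DMSO range. AN12478, AN5566 and AN0490 were chosen after their values were seen, and AN5566 lost its call without D27. Of 25 genes annotated to purine or pyrimidine metabolism, limma called 10 higher and 6 lower. These are 40% and 24%, beside 41.5% and 32.6% of all listed genes, so no direction of the pathway is read from the list. The largest rise on that list, AN3952, and the largest fall, AN1591, are predicted ATPases taken in through the word nucleoside-triphosphatase and not enzymes of the pathway. AN4228, a cytosine deaminase that salvages bases, fell. It was at 1.10, 1.73 and 0.961 RPKM against 3.63, 3.42 and 5.44 RPKM (-1.18 ± 0.27). Over the 25 genes limma made 0 calls without B22, B24 or D25 (unadjusted p under 0.05 in 16, 15 and 19 genes) and 22, 19 and 11 calls without B23, D26 and D27.

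The low B23 extended beyond these functions. In all, 136 genes that were higher with BaP had B23 nearer to DMSO, and in 133 of them D26 was nearer to DMSO as well. Of the 136 genes, 36 were in the ribosome list, 15 in the mitochondrial list and 7 each in the translation and the purine lists. Another 87 were in none of the ribosome, translation and purine lists. *ssz1* (AN4616), a ribosome-associated chaperone of the Hsp70 family in yeast, was at 37.9, 13.9 and 32.5 RPKM with BaP and 10.6, 11.1 and 10.4 RPKM with DMSO (1.20 ± 0.38). AN6374, a helicase by orthology, was at 45.8, 8.56 and 39.3 RPKM against 8.86, 6.18 and 8.78 RPKM, and B23 lay below D25 and D27. AN0894, an RNA helicase whose yeast ortholog Mss116p acts on mitochondrial introns, was at 31.5, 8.74 and 25.5 RPKM against 5.03, 6.55 and 3.86 RPKM.

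Annotations on farnesol, a sesquiterpene alcohol that the yeast *Candida albicans* secretes, divided into the same pair of patterns. Of 37 genes whose annotation mentions farnesol, 34 were higher with BaP and limma called all 34, and of the 3 that were lower limma called 2. These are 91.9% and 5.4% of the list, beside 41.5% and 32.6% of all listed genes. Of 17 genes annotated as reduced by farnesol, 16 were higher with BaP, and in 15 of these B23 lay nearer to DMSO, with 5 in the ribosome list. Of 20 genes annotated as upregulated or induced by farnesol, 18 were also higher with BaP, yet in 17 of these D26 lay nearer to BaP, and B23 nearer to DMSO in only 1. Genes annotated with opposite responses to farnesol thus moved in the same direction with BaP and differed in which library stood between the groups. This split was noticed after the values had been seen, and no test was run on it. Over the 37 genes limma made 0 calls without B22, B24 or D25 (unadjusted p under 0.05 in 21, 20 and 28 genes) and 31, 33 and 29 calls without B23, D26 and D27.

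At the other extreme were genes in which D26 equalled the BaP libraries. D26 lay over 0.8 of the way to BaP in 119 of the higher genes. AN8642, with an oxidoreductase domain, was at 5.68, 4.32 and 6.07 RPKM with BaP and 1.20, 5.24 and 0.732 RPKM with DMSO. AN8587, also an oxidoreductase by its domains, was at 1.41, 1.51 and 1.74 RPKM against 0.302, 1.72 and 0.195 RPKM. In both, D25 and D27 were under 1.5 RPKM and D26 lay within the BaP range, so the groups overlapped. AN8642 was called and AN8587 was not. Of the 71 higher genes whose groups overlapped, 43 came apart without D26 and 52 without B23, and of 23 such lower genes 18 and 15 did.

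Genes of amino acid breakdown were mostly called lower. Of 11 listed genes found by words for amino acid degradation, limma called 9 lower and 2 higher (81.8% and 18.2%, beside 32.6% and 41.5% of all listed genes). On chromosome VII, *maiA* (AN1895) and *fahA* (AN1896), the last enzymes of phenylalanine and tyrosine breakdown, lie next to each other. *maiA* (2182191 to 2183279) was at 9.37, 33.8 and 16.5 RPKM with BaP and 77.8, 55.99 and 92.4 RPKM with DMSO (-2.02 ± 0.45), and *fahA* at 7.45, 22.1 and 13.02 RPKM against 85.1, 43.2 and 127 RPKM (-2.49 ± 0.50). *hpdA* (AN1899), an earlier enzyme of the path, 4-hydroxyphenylpyruvate dioxygenase, was at 41.4, 222 and 113 RPKM against 307, 237 and 276 RPKM, and B23 lay close to D26. In all 3 genes B22 was the lowest library.

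Genes of leucine breakdown in a cluster on chromosome III fell. *mccA* (AN4690) and *mccB* (AN4687), the subunits of 3-methylcrotonyl-CoA carboxylase, fell by 1.25 and 1.36 on the log2 scale, and *ivdA* (AN4688), an acyl-CoA dehydrogenase between them, fell by 1.58. *ivdA* was at 9.09, 16.02 and 10.6 RPKM with BaP and 35.5, 28.7 and 47.6 RPKM with DMSO, and *mccB* at 16.4, 23.6 and 19.8 RPKM against 55.1, 42.2 and 61.1 RPKM, with no overlap. The proline cluster on chromosome VII moved the same way. *prnD* (AN1731), proline oxidase, was at 2.34, 2.92 and 1.51 RPKM against 9.40, 7.52 and 10.2 RPKM (-1.64 ± 0.27), and *prnC* (AN1733), the dehydrogenase of the next step, was at 24.5, 37.02 and 25.7 RPKM against 81.9, 65.6 and 79.4 RPKM (-1.37 ± 0.26). The proline permease gene *prnB* (AN1732) between them was at or under 1.10 RPKM in every library, and its log2 change of -0.51 ± 0.25 was not called.

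Genes of arginine breakdown and a predicted ammonia-lyase gene rose. *agaA* (AN2901), arginase, was at 230.2, 134 and 126 RPKM with BaP and 77.5, 108 and 46.8 RPKM with DMSO (1.09 ± 0.39), and *otaA* (AN1810), the ornithine transaminase that follows it, at 400.4, 404 and 362 RPKM against 208, 261 and 81.1 RPKM (1.24 ± 0.43). AN3897, a predicted ammonia-lyase of phenylalanine, was at 230.2, 153 and 196 RPKM against 58.4, 121 and 24.5 RPKM (1.75 ± 0.54). In all 3 genes the DMSO library nearest to BaP was D26. The 2 higher genes of the list of 11 were *agaA* and AN3897. The words missed *otaA*, so the list is not complete for amino acid breakdown. Over the 11 degradation genes limma made 0 calls without B22, B24 or D25 (unadjusted p under 0.05 in 9, 11 and 9 genes) and 11, 11 and 6 calls without B23, D26 and D27. Of 13 genes found by words for amino acid biosynthesis, 6 were higher and 7 lower. Limma called 4 and 2 of them (30.8% and 15.4%, beside 41.5% and 32.6% of all listed genes). The words also took in the penicillin gene *acvA* and the ammonia-lyase AN3897, which do not make amino acids. No direction of amino acid biosynthesis is read from this list.

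Genes whose annotation names nitrate or another nitrogen source were mostly lower. Of 37, 26 were lower and 11 higher, with a median log2 change of -1.08. Limma called 20 lower and 9 higher (54.1% and 24.3%, beside 32.6% and 41.5% of all listed genes). The words pooled genes annotated as induced and as repressed by nitrate. Among the repressed was *aflR*, the activator of the sterigmatocystin cluster, whose log2 change was the median of the list. The count is therefore not one of nitrogen-source genes alone. Beside the AN10431 cluster, AN3707, with an amidine hydrolase domain, was at 2.96, 6.04 and 5.63 RPKM with BaP and 16.5, 12.1 and 24.7 RPKM with DMSO (-1.67 ± 0.35). The higher ones included AN6633 and AN8058, a molybdenum-binding oxidoreductase with a predicted role in nitrate assimilation, at 67.4, 54.4 and 58.6 RPKM against 15.1, 44.2 and 5.58 RPKM (1.86 ± 0.63). Annotations as nitrate-induced were therefore found both at the largest fall and among the largest rises. Limma called 1 of the 37 without B22, 1 without B24 and 1 without D25, against 25 without B23, 30 without D26 and 22 without D27.

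Transporters changed in both directions. Of 103 genes annotated as membrane transporters, 42 were higher and 61 lower, and limma called 32 higher and 38 lower. These are shares of 31.1% and 36.9%, not far from the 41.5% and 32.6% of all listed genes. AN12206, of basic amino acid transport by orthology, was at 92.6, 50.4 and 78.7 RPKM with BaP and 13.5, 39.2 and 1.36 RPKM with DMSO (2.71 ± 0.92). AN6277, with a transmembrane transport domain, was at 570.1, 322 and 546 RPKM against 78.3, 119.5 and 50.9 RPKM (2.56 ± 0.38), and AN5323, also known by its transporter domain alone, was at 139.6, 82.3 and 104 RPKM against 17.1, 70.2 and 2.44 RPKM (2.71 ± 0.96). The BaP libraries were above all DMSO libraries in the 3 genes. AN6778, another transmembrane protein, was at 20.02, 53.4 and 24.6 RPKM against 136, 96.2 and 158 RPKM (-2.06 ± 0.40), with no overlap in the other direction. Over the transporters limma made 0 calls without B22, B24 or D25 (unadjusted p under 0.05 in 71, 66 and 73 genes) and 67, 75 and 54 calls without B23, D26 and D27.

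All 7 listed sugar transporters were called, 3 higher and 4 lower (42.9% and 57.1%, beside 41.5% and 32.6% of all listed genes). *xtrE* (AN4148), a putative xylose transporter on chromosome II (1944647 to 1947775), was at 13.8, 14.5 and 27.5 RPKM with BaP and 2.79, 3.55 and 2.30 RPKM with DMSO (2.28 ± 0.32), and B24 and not B22 was its highest library. AN9173, annotated as induced by xylose, was at 9.20, 8.05 and 8.80 RPKM against 2.66, 4.67 and 0.955 RPKM and *mstB* (AN2475) at 7.55, 5.54 and 8.14 RPKM against 1.49, 4.25 and 1.61 RPKM, and both rose. AN3515, a maltose and alpha-glucoside symporter by orthology, fell, from 12.4, 8.34 and 12.98 RPKM with DMSO to 2.05, 4.46 and 1.85 RPKM with BaP (-1.74 ± 0.33). AN4590, which shares the xylose annotation, fell from 37.6, 23.6 and 40.1 RPKM to 11.3, 17.4 and 12.9 RPKM (-1.21 ± 0.30). Transporters with the same annotated inducer therefore moved in opposite directions. Over the 7 genes limma made 0 calls without B22, B24 or D25 (unadjusted p under 0.05 in 7, 7 and 7 genes) and 7, 7 and 6 calls without B23, D26 and D27.

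Genes for enzymes that break down polysaccharides were mostly lower with BaP, and many of them were not called. Of 51 glycoside hydrolases and polysaccharide lyases, 40 were lower and 11 higher with BaP, with a median log2 change of -0.84. Over all listed genes 755 of 1503 were lower. Limma called 17 lower and 5 higher (33.3% and 9.8%, beside 32.6% and 41.5% of all listed genes), and 29 were not called. The median of the list ran from 2.13 to 5.76 RPKM between libraries, where the added 1 in log2(RPKM + 1) shrinks the change. *bxlD* (AN7864), a beta-1,4-xylosidase, was at 3.97, 8.78 and 6.48 RPKM with BaP and 19.2, 16.03 and 25.7 RPKM with DMSO (-1.55 ± 0.33). *cbhB* (AN0494), a cellobiohydrolase of cellulose, was at 1.25, 3.20 and 0.846 RPKM against 6.54, 4.24 and 6.52 RPKM (-1.36 ± 0.36), and *xlnA* (AN3613), a xylanase, at 10.7, 3.91 and 6.50 RPKM against 18.9, 18.1 and 25.9 RPKM with B23 as the lowest library. Higher with BaP were *abnD* (AN3044), an arabinanase of pectin side chains, at 103, 94.6 and 103 RPKM against 29.7, 57.5 and 8.83 RPKM (1.96 ± 0.59), and AN3883, a glucanase, at 42.998, 41.2 and 68.3 RPKM against 19.3, 33.7 and 6.31 RPKM (1.55 ± 0.55). Among these hydrolases limma made 0 calls without B22, B24 or D25 (unadjusted p under 0.05 in 40, 33 and 34 genes) and 28, 30 and 21 calls without B23, D26 and D27.

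Peptidase genes were called in both directions, more often lower. Limma called 8 of 13 lower and 3 higher (61.5% and 23.1%, beside 32.6% and 41.5% of all listed genes), with a median of -1.20. AN6438, a dipeptidyl-peptidase by orthology, was at 21.9, 37.8 and 21.3 RPKM with BaP and 72.4, 62.99 and 75.4 RPKM with DMSO (-1.39 ± 0.29), and AN10900, with a serine peptidase domain, at 3.76, 5.77 and 3.68 RPKM against 13.8, 11.95 and 13.7 RPKM (-1.41 ± 0.25). The higher genes were AN3377, an extracellular endopeptidase by orthology (1.71 ± 0.57), and AN1850 and AN1104, both peptidases of mitochondria by orthology, of protein quality control and of the processing of imported proteins (1.27 ± 0.32 and 1.02 ± 0.29). Over the 13 peptidases limma made 0 calls without B22, B24 or D25 (unadjusted p under 0.05 in 12, 10 and 10 genes) and 11, 12 and 10 calls without B23, D26 and D27. Of 23 genes annotated to the cell wall, limma called 5 higher and 6 lower. These are smaller shares than those of all listed genes. AN2314, a glucan branching enzyme of glycogen, was called higher, at 569.6, 295 and 406 RPKM against 97.9, 198 and 63.7 RPKM (1.92 ± 0.45), and *afcA* (AN8149), an alpha-fucosidase of xyloglucan, was called lower, at 1.82, 3.58 and 2.32 RPKM against 8.50, 6.59 and 9.49 RPKM (-1.38 ± 0.28).

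Genes for transcription factors were lower with BaP in most cases. Of 72, 56 were lower and 16 higher, with a median log2 change of -1.003. Limma called 36 lower and 9 higher (50% and 12.5%, beside 32.6% and 41.5% of all listed genes). The word search had taken in *palA*, *palF* and the polymerase subunit AN10970, and without these limma called 35 of 69 lower and 7 higher. None of the 72 had overlapping groups, and 93.7% of all listed genes had none either, so nothing is read from this. Over the 72 limma made 0 calls without B22, B24 or D25 (unadjusted p under 0.05 in 54, 52 and 52 genes) and 52, 57 and 36 calls without B23, D26 and D27.

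Several activators of the use of a single carbon source fell. *amyR* (AN2016), the activator of starch-degrading enzymes, was at 4.72, 7.54 and 4.38 RPKM with BaP and 22.6, 15.6 and 21.9 RPKM with DMSO (-1.70 ± 0.29). *xlnR* (AN7610), the activator of xylanases, was at 9.77, 22.2 and 13.6 RPKM against 41.5, 32.6 and 35.3 RPKM (-1.28 ± 0.33), and *clrB* (AN3369), a regulator of cellulases, at 13.7, 30.9 and 19.6 RPKM against 47.9, 39.7 and 57.3 RPKM (-1.20 ± 0.34). In *xlnR* and *clrB* B23 lay nearer to DMSO than to B22 and B24, without overlap. *alcR* (AN8978), the activator of ethanol utilization, was at 5.24, 9.25 and 5.41 RPKM against 19.7, 16.8 and 25.5 RPKM (-1.52 ± 0.30), and its neighbour *alcP* (AN8977) fell by 1.15. The 8 genes found by words for the ethanol regulon went mostly the other way, with a median log2 change of 1.31. Limma called 5 higher and 3 lower (62.5% and 37.5%, beside 41.5% and 32.6% of all listed genes). Over the 8 limma made 0 calls without B22, B24 or D25 and 7, 8 and 7 calls without B23, D26 and D27. *farB* (AN1425), for short-chain fatty acids, and *rhaR* (AN5673), for rhamnose, fell by 1.15 and 1.30.

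Other regulators that fell act in development, pH and secondary metabolism. *pacC* (AN2855), the factor activated at alkaline pH, was at 40.4, 89.7 and 55.97 RPKM with BaP and 156, 136 and 140.1 RPKM with DMSO (-1.28 ± 0.32). Within the pathway that activates it, *palF* (AN1844) fell by 1.34 and *palA* (AN4351), whose product binds PacC, rose by 1.20 ± 0.34, at 19.3, 14.9 and 21.1 RPKM against 8.94, 10.3 and 4.27 RPKM. AN6747, a predicted transcription factor, was at 3.04, 6.01 and 4.05 RPKM against 23.3, 13.4 and 20.1 RPKM (-1.90 ± 0.32). Factors that rose included AN3768, at 102, 80.3 and 88.7 RPKM against 26.6, 57.3 and 16.6 RPKM (1.57 ± 0.43), and AN8636, at 779.9, 533 and 624 RPKM against 212, 528 and 93.8 RPKM, in which D26 nearly equalled B23.

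Several regulators of sexual development and of the velvet complex fell. *nsdD* (AN3152), a GATA factor required for sexual development, was at 10.8, 36.2 and 17.2 RPKM with BaP and 90.5, 60.96 and 85.1 RPKM with DMSO (-1.98 ± 0.43). *veA* (AN1052), the light-dependent velvet protein that couples development to secondary metabolism, was at 17.6, 34.8 and 23.8 RPKM against 79.8, 51.2 and 88.6 RPKM (-1.51 ± 0.34). Its partner *laeA* (AN0807), a methyltransferase-domain regulator, was at 10.6, 12.5 and 9.04 RPKM against 23.3, 19.6 and 26.9 RPKM (-1.05 ± 0.25), and *velC* (AN2059), a velvet family protein, at 8.71, 8.32 and 8.90 RPKM against 21.7, 15.5 and 30.6 RPKM (-1.24 ± 0.29). The BaP libraries were below the DMSO libraries in all 4 genes. *noxA* (AN5457), the NADPH oxidase needed for fruiting bodies, and AN6046, a homolog of its regulatory subunit, fell by 1.36 and 1.75, with AN6046 at 17.4, 34.7 and 20.8 RPKM against 79.1, 67.3 and 98.1 RPKM.

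Genes annotated to conidia, the asexual spores, or to sexual development were called in both directions. Of 20 such genes limma called 7 higher and 12 lower (35% and 60%, beside 41.5% and 32.6% of all listed genes). Among the 7, SpoC1-C1C (AN10628), a conidium-specific RNA, was at 74.6, 54.6 and 53.2 RPKM with BaP and 9.69, 37.2 and 3.81 RPKM with DMSO (2.29 ± 0.68), and *cetL* (AN9194), enriched in dormant conidia, was at 18.6, 10.8 and 11.6 RPKM against 4.67, 10.02 and 0.774 RPKM (1.57 ± 0.62). D26 lay near the BaP libraries in both and D27 was lowest. The list summed to 2776, 2458 and 2387 RPKM with BaP and 1806, 2316 and 1426 RPKM with DMSO. The kinase gene *hogA* was the largest single value in every library but D27. The regulators of conidiophore formation *brlA*, *abaA* and *wetA* were not analysed here, so the presence of spores could not be checked on their defining genes, and the part of spores in these values was not tested. Over the list limma made 0 calls without B22, B24 or D25 (unadjusted p under 0.05 in 14, 16 and 15 genes) and 17, 19 and 10 calls without B23, D26 and D27.

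Genes of secondary metabolism were called in both directions, and those for penicillin were lower. Of 51 genes annotated to secondary metabolism outside the sterigmatocystin cluster, limma called 19 lower (37.3%) and 9 higher (17.6%). Over all listed genes the shares were 32.6% and 41.5%. The penicillin genes lie side by side on chromosome VI. *aatA* (AN2623), the acyltransferase of the last step (3358277 to 3359896), was at 3.26, 5.04 and 2.28 RPKM with BaP and 16.3, 10.6 and 18.3 RPKM with DMSO (-1.84 ± 0.33), and *ipnA* (AN2622), isopenicillin N synthase, was at 18.1, 23.6 and 14.1 RPKM against 54.7, 42.4 and 65.3 RPKM (-1.50 ± 0.29). *acvA* (AN2621), the peptide synthetase of the first step, was under 1 RPKM in all 6 libraries, at 0.195, 0.244 and 0.162 RPKM against 0.625, 0.568 and 0.692 RPKM, without overlap, and was not called (-0.44 ± 0.21). *mtfA* (AN8741), a regulator of secondary metabolism, was at 3.29, 3.69 and 5.03 RPKM against 19.4, 5.44 and 34.1 RPKM (-1.75 ± 0.58), and D26 lay next to the BaP libraries and not with D25 and D27. Over the 51 genes limma made 0 calls without B22, B24 or D25 (unadjusted p under 0.05 in 28, 33 and 31 genes) and 31, 32 and 26 calls without B23, D26 and D27.

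In genes of the sterigmatocystin cluster B23 was not displaced towards DMSO. In *stcF* (AN7818), a P450 of the pathway, the values were 84.4, 70.8 and 65.9 RPKM with BaP and 180.2, 141 and 189.7 RPKM with DMSO (-1.19 ± 0.25), and in *stcV* (AN7805), a norsolorinic acid reductase, 160.2, 139 and 151 RPKM against 380.4, 331 and 329 RPKM (-1.20 ± 0.22). B23 was lower than B22 in both. The median place of B23 over 4 genes of the list was -0.07, against 0.39 over all lower genes, and the difference was not tested. One of these 4 was *fhbB*, which is outside the cluster and higher with BaP, at a place of 0.14. Of the 8 genes that the annotation words selected, limma called 6 lower and 1 higher (75% and 12.5%, beside 32.6% and 41.5% of all listed genes). The higher one was *fhbB* (AN3522), a flavohemoprotein that detoxifies nitric oxide and lies outside the cluster, at 56.2, 41.1 and 48.3 RPKM against 9.35, 28.2 and 2.99 RPKM (2.21 ± 0.65). The remaining one, CYP620D1 (AN3394), was at or under 0.176 RPKM throughout. Over the 8 genes limma made 0 calls without B22, B24 or D25 (unadjusted p under 0.05 in 7, 7 and 7 genes) and 4, 7 and 7 calls without B23, D26 and D27.

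Cytochromes P450, the family to which known BaP-oxidizing enzymes belong, were mostly lower among the listed genes at 24 h. Of 19 genes found by the annotation, 2 are cyclophilins with a *cyp* symbol. Among the other 17 limma called 1 higher and 8 lower, where it called 41.5% and 32.6% of all listed genes. The 1 called higher was CYP505A8 (AN6835), at 12.3, 7.49 and 11.99 RPKM with BaP and 3.38, 5.88 and 1.56 RPKM with DMSO (1.41 ± 0.40; limma, adjusted p = 0.0169). CYP532A4 (AN10259) was at 15.8, 27.6 and 17.6 RPKM against 54.7, 41.2 and 67.98 RPKM (-1.39 ± 0.31) and CYP663A1 (AN7399) at 3.41, 4.55 and 4.83 RPKM against 11.8, 9.57 and 12.8 RPKM (-1.24 ± 0.25). The groups were apart in each of these genes. *bapA* was not analysed here. Over the 19 genes limma made 0 calls without B22, B24 or D25 (unadjusted p under 0.05 in 12, 13 and 11 genes) and 12, 12 and 10 calls without B23, D26 and D27. Of 150 oxidoreductases and dehydrogenases in all, limma called 43 higher and 62 lower (28.7% and 41.3%, beside 41.5% and 32.6% of all listed genes).

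Of 7 redox and detoxification genes, limma called 5 higher and 2 lower (71.4% and 28.6%, beside 41.5% and 32.6% of all listed genes). The peroxidase AN5440, at -2.08 ± 0.37, had the largest fall among them. *gst3* (AN10273), a glutathione S-transferase, was at 246, 225 and 232 RPKM with BaP and 74.2, 129 and 44.8 RPKM with DMSO (1.62 ± 0.38), and AN3973, a peroxiredoxin, at 121, 105 and 127 RPKM against 29.4, 63.5 and 15.5 RPKM (1.90 ± 0.47). The BaP libraries lay close together in both, and D26 stood between them and D27. AN5658, with a gamma-glutamyltransferase domain, fell, from 20.9, 15.8 and 17.4 RPKM to 4.72, 10.8 and 7.77 RPKM (-1.17 ± 0.32). Over the 7 genes limma made 0 calls without B22, B24 or D25 (unadjusted p under 0.05 in 6, 6 and 7 genes) and 7, 7 and 5 calls without B23, D26 and D27.

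Values of 4 genes of the HOG pathway, which answers osmotic stress by making glycerol, are given as single genes and not as a list. *hogA* (AN1017), the MAP kinase, was at 1737, 1317 and 1374 RPKM with BaP and 630.2, 1166 and 283 RPKM with DMSO (1.30 ± 0.49), and *pbsA* (AN0931), the kinase above it, at 85.4, 82.1 and 76.1 RPKM against 36.6, 58.98 and 20.7 RPKM (1.17 ± 0.38). The glycerol 3-phosphate dehydrogenase genes *gfdA* (AN0351) and *gfdB* (AN6792) rose by 1.32 ± 0.35 and 2.53 ± 0.96. *gfdB* was at 123, 105 and 110.4 RPKM against 20.7, 86.2 and 3.05 RPKM, and D26 lay 28.2-fold above D27. Among 25 kinase and GTPase genes limma called 11 higher and 9 lower (44% and 36%, beside 41.5% and 32.6% of all listed genes). The largest fall was of *ran1* (AN4935), a serine/threonine kinase by orthology, at 148, 268 and 190.2 RPKM against 662, 578 and 955 RPKM (-1.86 ± 0.32). Over the 25 genes limma made 0 calls without B22, B24 or D25 (unadjusted p under 0.05 in 14, 17 and 15 genes) and 16, 21 and 9 calls without B23, D26 and D27.

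DNA repair and chaperone genes were higher. Of 18 genes annotated to repair, recombination or replication, 16 were higher and 2 lower. Limma called 13 higher and 0 lower (72.2% and 0%, beside 41.5% and 32.6% of all listed genes). The lower 2, AN6968 and AN2938, had an unadjusted p of 0.0153 and 0.00667 by limma but log2 changes of -0.80 and -0.92, short of the limit. AN0604, of nucleotide excision repair by orthology, was at 24.5, 14.03 and 20.6 RPKM with BaP and 5.49, 8.18 and 3.22 RPKM with DMSO (1.68 ± 0.36), and AN0097, of end joining by orthology, at 66.5, 39.1 and 48.8 RPKM against 20.6, 31.6 and 17.2 RPKM (1.13 ± 0.32). Several of the 16, such as AN0894 and AN6374, are helicases that act on RNA by orthology. Over the 18 genes limma made 0 calls without B22, B24 or D25 (unadjusted p under 0.05 in 13, 13 and 13 genes) and 15, 13 and 10 calls without B23, D26 and D27. All 5 chaperone genes were called higher, beside 41.5% of all listed genes. *hsp104* (AN0858), a disaggregase in yeast, was at 287, 162 and 228 RPKM against 64.7, 134 and 34.5 RPKM (1.70 ± 0.49), and *hsf1* (AN8035), the heat shock transcription factor, was lower at 9.31, 9.46 and 8.16 RPKM against 17.7, 14.3 and 22.8 RPKM, with a log2 change of -0.93 ± 0.26 that did not pass the limit. Over the 5 chaperones limma made 0 calls without B22, B24 or D25 (unadjusted p under 0.05 in 3, 3 and 4 genes) and 5, 5 and 4 calls without B23, D26 and D27.

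Lipid genes were called in both directions in shares close to those of all listed genes. Of 48 genes annotated to lipids, sterols or peroxisomes, limma called 21 higher (43.8%) and 16 lower (33.3%). *coaT* (AN1547), a CoA-transferase that detoxifies propionyl-CoA, was at 68.5, 39.8 and 56.7 RPKM with BaP and 10.8, 32.95 and 3.77 RPKM with DMSO (2.14 ± 0.65), and AN2477, a phospholipid scramblase by orthology, at 1012, 658 and 753 RPKM against 187, 496 and 46.9 RPKM (2.27 ± 0.76). *acdA* (AN12335), with an acyl-CoA dehydrogenase domain, was at 5.49, 12.3 and 8.03 RPKM against 28.3, 19.6 and 29.2 RPKM (-1.51 ± 0.33), and *aoxB* (AN6765), a peroxisomal acyl-CoA oxidase, fell by 1.07. Over the 48 genes limma made 0 calls without B22, B24 or D25 (unadjusted p under 0.05 in 33, 34 and 36 genes) and 36, 45 and 24 calls without B23, D26 and D27. The 34 genes annotated to the cytoskeleton, septation and the cell cycle were called higher in 17 cases and lower in 11 (50% and 32.4%). Of 150 genes annotated as of unknown function, 45 and 57 were called (30% and 38%). The shares over all listed genes were 41.5% and 32.6%.

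Listed genes that are neighbours on a chromosome mostly moved in the same direction. By the order of genes in the RefSeq annotation, 1402 of the 1503 genes could be placed, and 263 pairs were direct neighbours, of which 229 had the same sign and 34 opposite signs. There were 29 runs of 3 or more listed neighbours of 1 sign, 11 higher and 18 lower, and the longest had 4 genes. One of these lay on chromosome II, where *awh11* (AN3725), a developmentally regulated protein, at 5993, 3306 and 3705 RPKM with BaP and 891, 2257 and 273 RPKM with DMSO, was followed by AN3724, AN10441 and AN10466, all called higher. A run of AN10056, AN10060 and *gfdA* on chromosome VIII rose by 1.27, 1.70 and 1.32, with AN10060, a glycogen debranching enzyme, at 324, 225 and 282 RPKM against 70.9, 201 and 40.7 RPKM. Lower runs included the penicillin, proline and AN10431 clusters described above. By chromosome, the share of listed genes higher with BaP ran from 38.2% on IV (52 of 136) to 65.9% on III (112 of 170). No test was run on these shares, since neighbours are not independent.

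The deposited tables for 6 and 48 h show where the same genes stood before and after. Of the 1503 genes, 374 were listed at 6 h, which is 24.9% of the 24 h list and 53.2% of the 6 h list, and 915 at 48 h, which is 60.9% of the 24 h list and 59.8% of the 48 h list. No gene changed sign between tables. The genes shared with 6 h were 300 higher and 74 lower, and those shared with 48 h were 456 higher and 459 lower. Listed at 24 h alone were 412 genes, of which 253 were lower. The tables list selected genes only, each selected on its own libraries, and no difference between times was tested.

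Listing at the other times differed in number between lists, against 24.9% of all 24 h genes at 6 h and 60.9% at 48 h. Of the 40 ribosome genes, 1 was listed at 6 h (2.5%) and 36 at 48 h (90.0%), all of them higher. AN7674 had a log2 change of 2.35 at 24 h and 2.59 at 48 h, and AN7526 of 2.17 and 2.11. The glycolytic gene *pfkA* was listed at all times, at 1.93, 1.68 and 1.90 for 6, 24 and 48 h, and so was *ndeA*, at 2.29, 2.35 and 2.49. Of the 72 transcription factors, 12 were listed at 6 h, 6 in each direction, and 46 at 48 h (63.9%, close to the share of all listed genes), 39 of them lower. *amyR* had -1.70 at 24 h and -2.36 at 48 h, *xlnR* -1.28 and -1.64, and *nsdD* -1.98 and -2.54. The penicillin gene *aatA* had -1.84 and -3.36, *ipnA* -1.50 and -2.94, and AN10431 -3.95 and -5.31, in each case further from 0 at 48 h. *tpiB*, *hxkA*, *gst3*, *hogA* and *pbsA* were listed at 24 h alone.

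**Figure D5:**
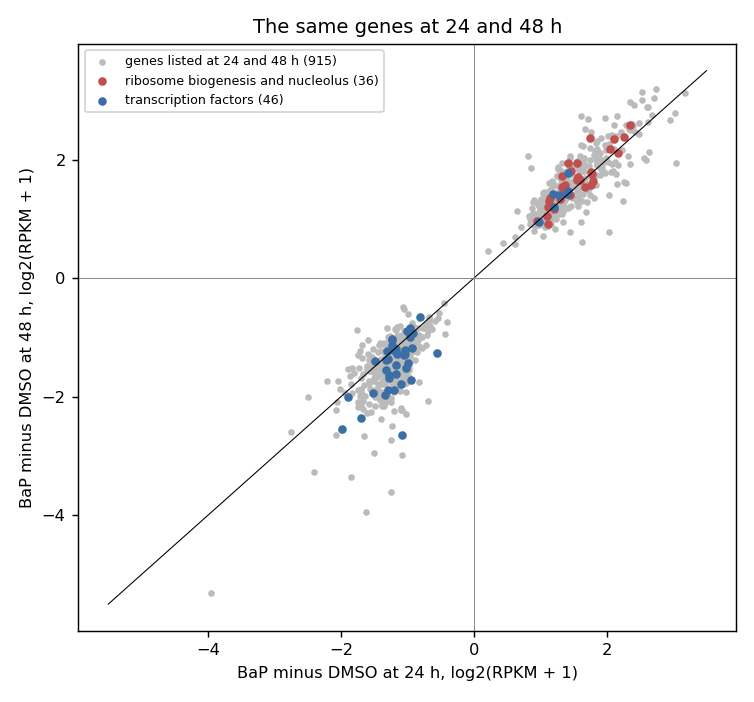
Each point is a gene listed at both 24 and 48 h (915 genes), with the log2 change of BaP minus DMSO on log2(RPKM + 1) at 24 h on the x axis and at 48 h on the y axis, and the diagonal marks equal changes. No point lies in the quadrants of opposite sign; ribosome genes (red, 36) lie at the upper right and transcription factors (blue, 46) mostly at the lower left.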

How the data were processed

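Polyadenylated RNA of 3 BaP and 3 DMSO cultures of *A. nidulans* FGSC A4 collected at 24 h was sequenced by the authors. Per the submitters' processing notes, FastQC, Subread, featureCounts, limma and Cufflinks were used; their order, their versions and the genome build are not given in the sources used here. The 24 h table that the authors deposited lists 1503 genes with 1 value per library and no named unit. The deposited values were read as RPKM, because the low values of a gene are steps of whole reads after division by a constant of each library, and because these steps shrink with gene length. Whole reads, at a tolerance of 0.03, came out for 1503 of 1503 genes, and such reads can be off by a whole-number factor for single genes. The authors also deposited their own log2 mean expression and log2 fold change with a p-value and an adjusted p-value. These 4 kinds of column, which also decided which genes the table lists, were not used, and 0 columns of per-library values were left out. Column names give treatment and time but no replicate number.

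Log2(RPKM + 1) was fitted with limma 3.58.1 in R 4.3.3, BaP minus DMSO, with no covariates, and p-values were adjusted by the Benjamini-Hochberg method over the 1503 genes. The code was tested on simulated data first. Counts, lists and figures were made with Python 3.11.15, pandas 2.3.3, numpy 2.4.6 and matplotlib 3.10.9. The 30 gene lists were made from words in the gene and annotation columns and are described by counts, medians and single libraries, with no set test. The 174 genes named by rule were those of the study's text and panels that the table lists, the 10 largest rises and 10 largest falls with no overlap of groups, the 3 largest rises and falls of each list, the 5 highest genes of each group, and the 5 genes with D26 nearest to and farthest from BaP. Not all of these genes are described here. Values of the study genes *citA*, *gsdA*, *acuE* and *cycA*, which the 24 h table lists, are not given. Each was called in the fits without B23, D26 and D27. Members and lists were chosen with earlier results of these data known. Other pseudocounts, a minimum mean of 5 RPKM, a variance trend, median centring, library weights, voom on the recovered reads, stricter thresholds and fits without each library were tried as alternatives. RefSeq annotation ASM1142v1 was used only for the order of genes, and coordinates are those of the deposited tables, whose build is not given in the sources used here. No sequence of genes or promoters was used here, and the planned description of promoter motifs was not run.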

Additional observations from a re-analysis of the deposited data

How the results depend on the processing

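None of the 174 named genes changed sign in the 2248 values from models fitted anew, where the genes had been listed or chosen for a difference on these libraries. The count of 1114 called genes fell to 1 at a false discovery rate of 0.01 (0 higher, where 1406 genes in either direction had an unadjusted p under 0.05 by limma, and 1 lower) and to 81 at a log2 limit of 2 (70 higher and 11 lower). Voom on recovered reads called 1467, with 725 higher and 742 lower, against 490 lower on log2(RPKM + 1), which shrinks low values. Pseudocounts of 0.1 and 0.5 gave 1446 and 1253 calls, a minimum mean of 5 RPKM 1028, the variance trend 1111, median centring 1122 (647 higher and 475 lower), and library weights 1178 (627 higher and 551 lower). The estimation of these weights stopped before it converged and gave D25 a weight of 85.1 and D26 of 0.136, so nothing is read from that count. Without 1 library, the counts ranged from 1 to 1238 in all, from 0 to 650 higher and from 1 to 588 lower. Without D27, 378 genes were higher. The lowest counts came without B22, B24 or D25, in which 1019, 1021 and 1074 genes had an unadjusted p under 0.05.

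No paired analysis was possible because the columns carry no replicate numbers. The description of promoter motifs was not run. The limits are those of the list: the genes had been selected on these 6 libraries, so no error rate follows from the adjusted p-values. With 3 libraries a group, of which D26 and B23 lay between the groups, the number of calls depended on which library was left out. In 49 genes a group mean was under 3 reads, and low genes are understated on log2(RPKM + 1). Whether B23 and D26 differ by culture or by handling was not tested.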
